A study of Mus musculus with 6 samples.

Results

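Fstl1, the secreted protein genes related to it and the genes of its proposed receptor family were followed in airway epithelium given TGF-β1. The group held 10 mouse genes chosen by name, namely Fstl1, Fstl4, Fstl5, Sparc, Sparcl1, Smoc1, Smoc2, Dip2a, Dip2b and Dip2c. A probe of the array was counted as theirs where its RefSeq accession belongs to one of these genes. This gave all 10 genes among 22910 on the array and 17 probes among 56599. The cells were airway epithelial organoids from the lung of C57BL/6 mice, spread as a flat culture (2D-MAOs). The TGF-β1 group of 3 cultures received TGF-β1 from day 3, and the control group of 3 cultures did not. Both groups were in the medium lacking noggin, an inhibitor of BMPs, and A83-01, an inhibitor of TGF-β receptor kinases, and both were collected on day 7. The TGF-β1 concentration and the number of mice behind the cultures are not given for the arrays in the sources used here. RNA of each culture was labelled with Cy3 and bound to 1 array. All signals below are log2 brightness after quantile normalisation, so that a difference of 1 is a 2-fold change, and a signal is comparable between arrays for the same probe only.

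SPARC-family proteins are matricellular: they are secreted into the extracellular matrix, where they tune how cells meet collagen and growth factors more than they hold tissue together. Most carry a follistatin-like domain next to a calcium-binding domain with EF-hands. FSTL1, a glycoprotein of this family, binds BMP4 and has been described as a ligand of DIP2A, of TLR4 with CD14, and of the sodium pump, and mice without it die at birth of respiratory failure. TGF-β1 binds its receptors at the cell surface and acts on genes largely through SMAD2 and SMAD3, and Fstl1 was first isolated as a TGF-β1-induced transcript of osteoblasts. The study took up Fstl1 from these same arrays, so its increase here is a description of those samples and not independent evidence.

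The arrays had 55.0% to 59.0% of their probes well above background. TGF-β1 replicate 3 stood apart from the other arrays of its group, at a Euclidean distance over 14345 genes of 61.1 and 62.3 from them and of 54.4 to 60.9 from the controls, whereas TGF-β1 replicates 1 and 2 lay 32.3 apart. Both replicate 3 arrays were in slide row 2, and the other 4 were in slide row 1 of the same slide. The main results that lean on these arrays are therefore given with and without them.

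Of the 10 genes, 7 stood well above background on 3 or more of the 6 arrays and were tested, as were 11 of the 17 probes. A gene was called when its log2 fold change was at least 1 in size with an adjusted p under 0.05 (limma, Benjamini-Hochberg over all genes). Fstl1 and Sparc were called, both higher with TGF-β1, against 1.38% of all 14345 genes tested and 1.19% called higher. None was called lower. All 4 tested probes of Fstl1 and Sparc were called, against 1.19% of the 32460 probes tested and 0.983% called higher. The groups did not overlap for 3 of the 7 genes, Fstl1, Sparc and Smoc1, and 5 of the 11 probes, against 26.4% of all genes (12.9% with TGF-β1 higher and 13.5% lower) and 29.8% of all probes. The 3 Dip2 genes and both Smoc genes did not pass. Fstl4, Fstl5 and Sparcl1 never stood well above background. In bulk RNA, fewer cells of a type and less RNA per cell cannot be told apart.

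**Figure D1:**
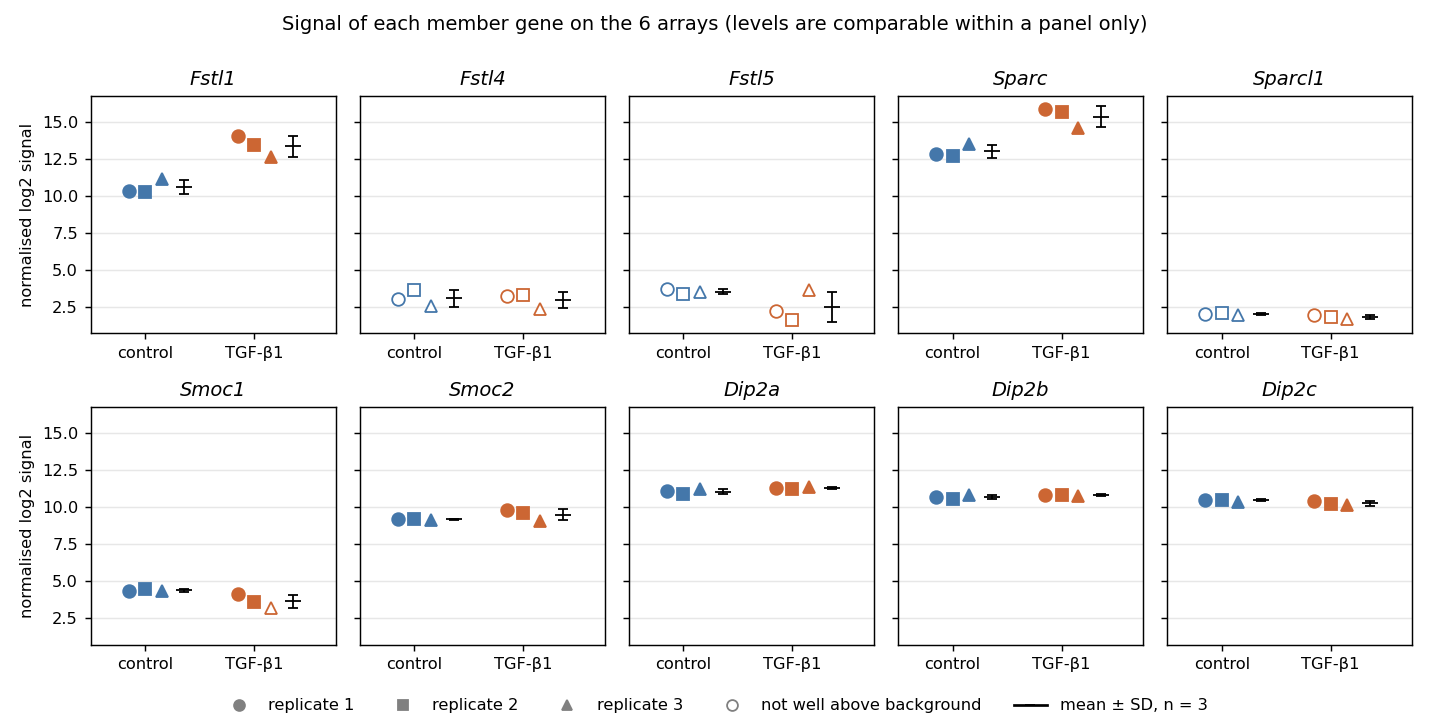
Normalised log2 signal (vertical axis) of the probe standing for each of the 10 genes in 3 control and 3 TGF-β1 cultures (horizontal axis), with 1 point per array, open where the probe was not well above background, and black bars for the mean ± SD (n = 3). Fstl1 and Sparc are the panels in which every TGF-β1 point lies more than 1 log2 unit above every control point.

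Fstl1 itself was already expressed in untreated 2D-MAOs, its spot shining 39.0 to 75.9 times brighter than the local background, and was higher in every treated culture. Its brighter probe, A_55_P2143517, gave 10.37, 10.29 and 11.18 in control replicates 1, 2 and 3, and 14.02, 13.43 and 12.63 in TGF-β1 replicates 1, 2 and 3. The lowest treated culture was thus well above the highest control, with the highest control and the lowest treated culture both being replicate 3. The mean was 10.61 ± 0.49 in the controls and 13.36 ± 0.70 with TGF-β1 (SD, n = 3). The log2 difference of 2.75 (SE 0.39, 95% interval 1.82 to 3.68, adjusted p = 0.0221 in limma) corresponds to 6.72-fold and was the 45th largest increase among the 14345 genes. The second probe, A_51_P215106, gave 9.62, 9.47 and 10.19 in the controls and 13.11, 12.57 and 11.63 with TGF-β1. It rose by 2.68 (SE 0.37, limma adjusted p = 0.0233 over all probes), with the arrays in the same order, and the probes had r = 0.998 over the 6 arrays. They report on the same RNA extracts and are not replicates of the treatment.

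Values within each slide row were as follows, and the difference between the rows was not tested. In slide row 1 alone, an alternative chosen after seeing the data, the log2 fold change was 3.40 (limma adjusted p = 0.00779, 2 arrays against 2). In slide row 2 the single TGF-β1 array exceeded the single control array by 1.45. With slide row as a term the difference was again 2.75 (adjusted p = 0.0360). The call was kept without TGF-β1 replicate 3 (3.11, adjusted p = 0.00626) and without control replicate 3 (3.03, adjusted p = 0.0358). It was lost without control replicate 1 (2.62, adjusted p = 0.0941), control replicate 2 (2.59, adjusted p = 0.0968), TGF-β1 replicate 1 (2.42, adjusted p = 0.0738) or TGF-β1 replicate 2 (2.71, adjusted p = 0.101). The exact permutation test of Fstl1 alone gave p = 0.1, two-sided, the smallest that 3 cultures against 3 allow.

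Sparc, the founding member of the family, whose protein binds fibrillar collagen and loosens cell adhesion, followed Fstl1 closely. Its brighter probe, A_55_P2046812, gave 12.86, 12.70 and 13.50 in the controls and 15.87, 15.65 and 14.58 with TGF-β1. The groups did not overlap, and replicate 3 was again the highest control and the lowest treated culture. The mean went from 13.02 ± 0.42 to 15.37 ± 0.69 (SD, n = 3). The log2 difference was 2.35 (SE 0.37, 95% interval 1.47 to 3.23, adjusted p = 0.0322 in limma) or 5.09-fold. This was the 62nd largest increase of all genes tested. The second probe, A_52_P101852, gave 10.02, 9.81 and 10.54 in the controls and 13.13, 12.73 and 11.63 with TGF-β1, a rise of 2.38 (limma adjusted p = 0.0337 over all probes). The pair of probes had r = 0.998 over the 6 arrays.

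In slide row 1 alone the log2 fold change of Sparc was 2.98 (limma adjusted p = 0.00552), and in slide row 2 the treated array exceeded the control by 1.08. With slide row as a term its adjusted p was 0.0444. Sparc kept its call without control replicate 3 (adjusted p = 0.0458) and without TGF-β1 replicate 3 (2.74, adjusted p = 0.00489). It lost the call without control replicate 1 (adjusted p = 0.123), control replicate 2 (adjusted p = 0.122), TGF-β1 replicate 1 (adjusted p = 0.116) or TGF-β1 replicate 2 (adjusted p = 0.125), with log2 fold changes of 2.10 to 2.27. Probe A_52_P101852 also missed the threshold without control replicate 3, at an adjusted p of 0.0509.

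**Figure D2:**
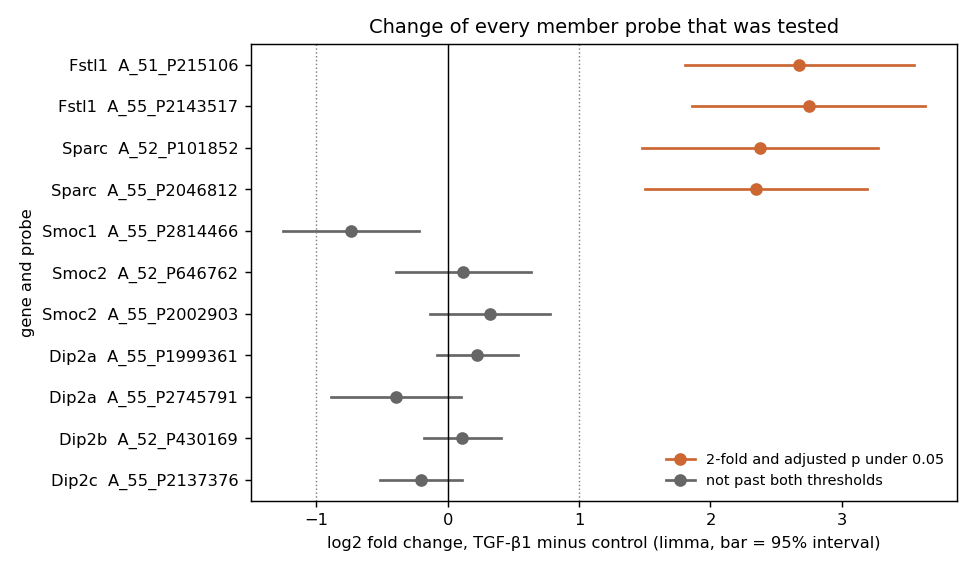
Log2 fold change of TGF-β1 over control (horizontal axis, dotted lines at a 2-fold change) for each of the 11 probes tested (vertical axis), with bars for the 95% interval of limma, orange where the probe was called. The 4 probes of Fstl1 and Sparc lie between 2.35 and 2.75, and the other 7 lie between -0.74 and 0.32.

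Fstl1 and Sparc kept the same order of arrays. Over the 6 arrays, which share the 2 treatment groups, their signals had r = 0.996, given as a description. Set against the mean of the 3 controls, Fstl1 was higher by 3.41, 2.82 and 2.02 in TGF-β1 replicates 1, 2 and 3, and Sparc by 2.85, 2.63 and 1.56. Among 13511 genes well above background on every array, the 5 with the highest r with Fstl1 were Ext1 (0.997), which makes heparan sulphate chains, Cfap69 (0.997), a ciliary gene, Acer2 (0.997), an alkaline ceramidase, Tmco3 (0.996) and Cdh6 (0.996), a cadherin. They were picked for their pattern, and 372 genes had r over 0.95. The sizes of change differed widely among these 5: Cdh6 was higher by 3.31 (adjusted p = 0.0273 in limma) and Ext1 by 1.18 (adjusted p = 0.0421), and both were called, while Acer2 was at 0.69, Cfap69 at 0.56 and Tmco3 at 0.21.

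**Figure D3:**
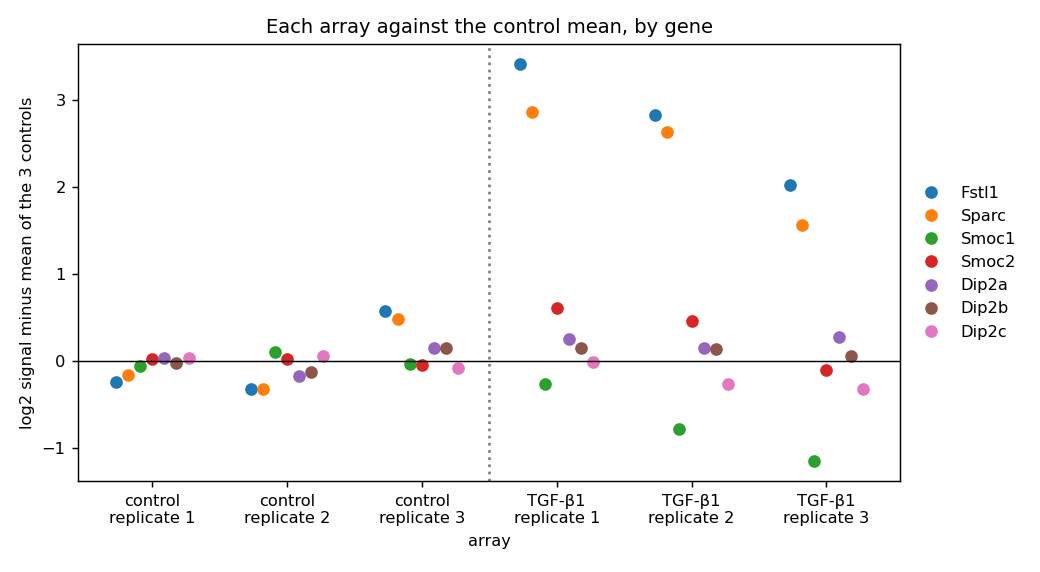
Log2 signal minus the mean of the 3 control arrays (vertical axis) for the 7 genes tested, with 1 point per gene on each of the 6 arrays (horizontal axis). Fstl1 and Sparc stand above the other genes on the 3 TGF-β1 arrays, between 2.02 and 3.41 and between 1.56 and 2.85.

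Because these 2 genes moved together, the 250 bases before their RefSeq start sites are shown, from the RefSeq table of assembly GRCm38.p6, each written 5′ to 3′ on the strand of the gene. Capitals mark the SMAD box CAGAC, the short element bound by SMAD3, and the GC box GGGCGG, bound by SP1-like factors, on either strand. Fstl1 lies on the plus strand at chr16:37776805-37777054, and Sparc on the minus strand at chr11:55420081-55420330.
Fstl1: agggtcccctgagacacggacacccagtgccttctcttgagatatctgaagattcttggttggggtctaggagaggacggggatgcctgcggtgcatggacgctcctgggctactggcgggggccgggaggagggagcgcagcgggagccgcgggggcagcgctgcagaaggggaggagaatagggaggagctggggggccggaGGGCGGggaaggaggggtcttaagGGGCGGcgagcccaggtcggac
Sparc: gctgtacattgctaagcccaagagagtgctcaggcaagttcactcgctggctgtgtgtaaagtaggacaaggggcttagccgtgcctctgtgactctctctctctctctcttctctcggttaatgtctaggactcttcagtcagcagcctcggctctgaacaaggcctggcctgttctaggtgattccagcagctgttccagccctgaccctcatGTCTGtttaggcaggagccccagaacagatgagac

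The windows had little in common. The Fstl1 window was 68% G and C, with 16 CpG dinucleotides and GC boxes starting at -46 and -22 from the start site. Sparc had a window of 54% G and C with 4 CpG dinucleotides, no GC box, and 1 SMAD box at -35, read there as GTCTG. The searched letters of the SMAD box were absent from the Fstl1 window. Across 32851 windows of the same length, 42.2% held a SMAD box and 32.7% a GC box. E-boxes (CANNTG) were found at 2 places in the Sparc window (read as CAGCTG and CAGATG), at 0 in that of Fstl1 and in 66.2% of all windows. The AP-1 motif TGACTCA, in 4.46% of all windows, and TATAAA, in 12.4%, were in neither. Windows were also found for Fstl4, Fstl5, Dip2a, Dip2b and Dip2c. A match or its absence describes these letters only.

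No other secreted relative was called. Smoc2, whose protein is a matrix-associated calcium-binding modulator of growth factor signalling, was clearly above background. Its brighter probe, A_55_P2002903, gave 9.20, 9.21 and 9.14 in the controls and 9.79, 9.64 and 9.08 with TGF-β1. TGF-β1 replicates 1 and 2 were above all controls and replicate 3 was below them all, so that the groups overlapped. Smoc2 thus differed by 0.32 (SE 0.19, 95% interval -0.13 to 0.78, adjusted p = 0.344 in limma). Without TGF-β1 replicate 3 it was 0.54 at an adjusted p of 0.0292, still below 2-fold. The dimmer probe of Smoc2, A_52_P646762, gave a difference of 0.12.

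Smoc1, which encodes a close relative of SMOC2 known as a BMP antagonist in eye and limb development, lay close to background. It gave 4.32, 4.48 and 4.35 in the controls and 4.12, 3.60 and 3.23 with TGF-β1, the last being not well above background. All treated values lay below all controls, as they did for 13.5% of all genes. Its difference was -0.74 (SE 0.22, 95% interval -1.26 to -0.21, adjusted p = 0.142 in limma), short of both thresholds. The spot was 1.45 to 1.93 times as bright as its local background with TGF-β1 and 1.70 to 1.86 times in the controls, and with normexp background correction the difference shrank to -0.12.

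Fstl4 and Fstl5, relatives of Fstl1 known mainly from the brain, and Sparcl1 (hevin), a SPARC-like protein of vessels and synapses, had no probe well above background. Their spots were 0.917 to 2.12 times as bright as the local background on all arrays. Fstl4 gave signals of 2.39 to 3.68 over the 6 arrays. The brightest of 3 probes for Fstl5 gave 1.63 to 3.71. The Sparcl1 probe gave 1.73 to 2.13. No fold change is given for these genes, and their RNA was not detectable here beyond background.

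The Dip2 genes encode large proteins with acyl-adenylate-forming domains, of which DIP2A has been described as a cell-surface receptor for FSTL1. All 3 were well above background on every array. Dip2a probe A_55_P1999361 gave 11.09, 10.89 and 11.21 in the controls and 11.32, 11.21 and 11.34 with TGF-β1. The lowest treated value was just below the highest control. The difference was 0.22 (SE 0.12, 95% interval -0.06 to 0.51, adjusted p = 0.310 in limma). The other Dip2a probes were dim: A_55_P2745791, well above background on 3 of 6 arrays, gave -0.39 while A_51_P380057 was dim on every array. With the mean of the 2 tested probes in place of the brighter one, the Dip2a difference turned to -0.085 (adjusted p = 0.685).

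Dip2b gave 10.68, 10.58 and 10.85 in the controls and 10.85, 10.83 and 10.75 with TGF-β1. The groups overlapped. The difference was 0.11 (SE 0.11, 95% interval -0.16 to 0.38, limma adjusted p = 0.575). Dip2c gave 10.49, 10.52 and 10.39 in the controls and 10.46, 10.20 and 10.14 with TGF-β1, where replicates 2 and 3 were below all controls and replicate 1 was among them. Its difference was -0.20 (SE 0.12, 95% interval -0.49 to 0.09, limma adjusted p = 0.352). The intervals of all 3 Dip2 genes lay within a 2-fold change in either direction.

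Genes for other proteins that FSTL1 is described to bind or to act through were listed as well: the TLR4 and CD14 receptors, BMP ligands, receptors and their SMAD and ID targets, subunits of the sodium pump, SRC-family and focal adhesion kinases, and vimentin. Of 25 genes, 23 were tested and 0 were called by limma. At an unadjusted p under 0.05, 7 passed in limma and 4 in the methods' t-test, and 1 and 0 of these had also a 2-fold change. The median log2 fold change was 0.02, with 12 genes above 0 and 11 below, against -0.03 for all genes. The highest value was that of Vim, the intermediate filament gene of mesenchymal cells. Its probe gave 4.80, 4.81 and 3.89 in the controls and 7.07, 6.55 and 5.04 with TGF-β1, groups that did not overlap. The difference was 1.72 (SE 0.53, adjusted p = 0.147 in limma), and 2.31 (adjusted p = 0.0131) without TGF-β1 replicate 3. With slide row as a term the adjusted p of Vim was 0.0246. Vim lay close to background in the controls, where its spot was 1.51 to 2.09 times as bright as the local background. With normexp background correction its difference shrank to 0.78 (limma adjusted p = 0.135), below 2-fold.

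BMP signalling genes gave smaller values in this list. Id2, a BMP target that restrains differentiation, was at -0.73 (limma adjusted p = 0.0997). The ligand gene Bmp7 was at 0.72 (adjusted p = 0.172) and the receptor gene Bmpr2 at 0.69 (adjusted p = 0.154). Without TGF-β1 replicate 3, Id2 was at -0.88 (limma adjusted p = 0.0223), Bmp7 at 0.998 (adjusted p = 0.0141) and Bmpr2 at 0.87 (adjusted p = 0.0403), all still below 2-fold. In slide row 1 alone Bmpr2 was called higher, at 1.04. Smad9 and Fyn were dim on all 6 arrays.

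Genes for proteins that SPARC binds or acts with, chiefly collagens, PDGFs, integrin β1 and stabilin-1, were the second list. Of 17 genes, 8 were well above background on all 6 arrays. Of these 8, 1 was called, higher, against 125 called higher among all 13517 genes well above background on all 6 arrays. The median log2 fold change was 0.72 for the 8 and -0.03 for all such genes. The called gene was Pdgfb, a growth factor subunit for mesenchymal cells. Its signals were 13.90, 13.86 and 14.35 in the controls and 15.64, 15.76 and 15.10 with TGF-β1, a rise of 1.47 (SE 0.22, limma adjusted p = 0.0255) without overlap.

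The collagen genes Col1a1, Col1a2, Col4a1 and Col4a2 were not well above background in any control. They entered the fit only through the TGF-β1 arrays, so they had to come out higher, and their values are a description that supports nothing about the list. Col1a1 and Col1a2 encode the chains of type I collagen. Col1a1 gave 2.74, 2.42 and 2.73 in the controls and 5.89, 5.42 and 4.74 with TGF-β1, at least 2.59-fold higher, with a limma adjusted p of 0.00910. Col1a2 gave 2.84, 3.03 and 3.70 in the controls and 4.89, 5.48 and 5.38 with TGF-β1, at least 2.38-fold higher (adjusted p = 0.0162). Col4a1, a basement membrane collagen, was at least 2.17-fold higher by its bound, with an adjusted p of 0.111. Each bound sets the mean treated signal against a control mean that takes, on each array, the larger of the probe's own signal and the lowest one among probes well above background. With normexp correction both type I collagen genes changed by under 2-fold, at 0.60 for Col1a1 and 0.43 for Col1a2 (adjusted p = 0.0847) on the log2 scale. Stab1, a scavenger receptor that takes up SPARC, was well above background in 1 control and in all TGF-β1 cultures, and was at 2.25 (adjusted p = 0.133), or 2.92 without TGF-β1 replicate 3 (adjusted p = 0.0187). With normexp correction Stab1 was at 0.85 (adjusted p = 0.139). Col3a1, Col5a1, Vtn and Fgf2 never exceeded background clearly.

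Other genes with follistatin-like domains were also listed. Of 8, 5 were tested and 2 called, both higher, against 1.19% of all genes called higher. Follistatin (Fst) and Fstl3 encode secreted traps of activins, ligands of the TGF-β superfamily. Fst gave 8.21, 8.91 and 8.83 in the controls and 11.22, 11.22 and 10.35 with TGF-β1, a rise of 2.28 (SE 0.29, limma adjusted p = 0.0174). Fstl3 gave 10.99, 10.87 and 10.79 in the controls and 12.80, 12.91 and 12.49 with TGF-β1, a rise of 1.85 (SE 0.14, adjusted p = 0.00316). Neither gene overlapped between the groups, and the SD of Fstl3 was 0.10 in the controls and 0.22 with TGF-β1. Tmeff1, a transmembrane protein with follistatin domains, was at 1.24 (adjusted p = 0.117), and at 1.59 without TGF-β1 replicate 3 (adjusted p = 0.0135). Spock1, a proteoglycan related to SPARC, was at -0.38 (adjusted p = 0.201), and at -0.51 without TGF-β1 replicate 3 (adjusted p = 0.0395). Tmeff2, Spock2 and Spock3 were not well above background.

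**Figure D4:**
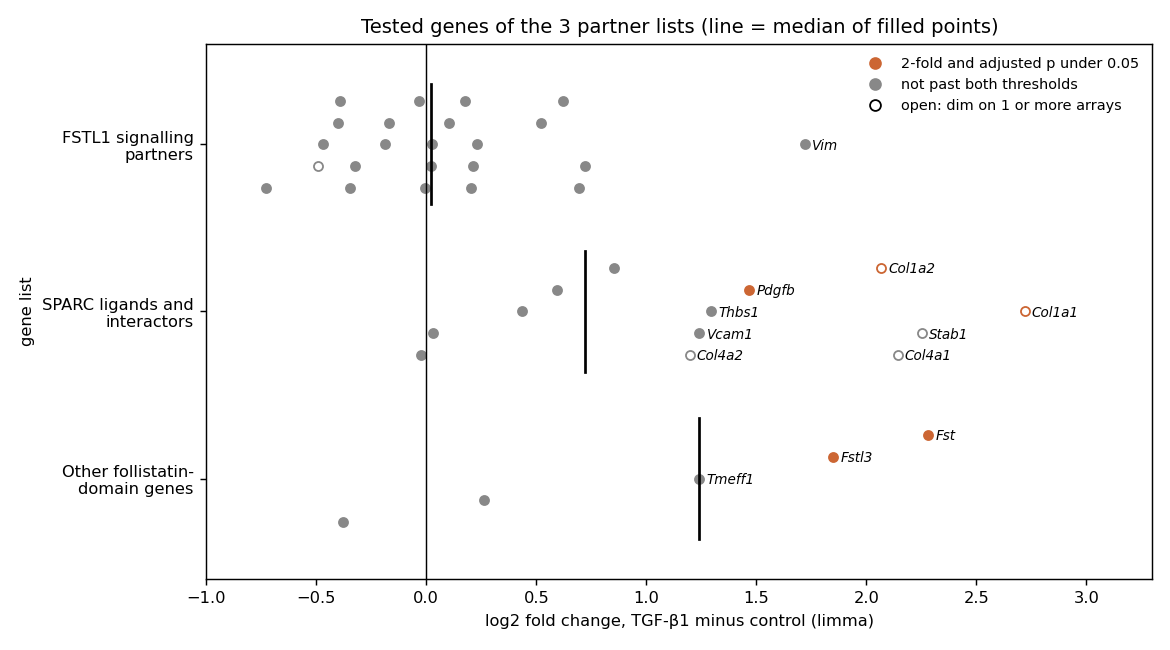
Log2 fold change of TGF-β1 over control (horizontal axis) for the 41 tested genes of the 3 lists (rows), with orange points for called genes open points for genes dim on 1 or more arrays and a vertical bar at the median of the filled points. The bars are at 0.02 for FSTL1 signalling partners, 0.72 for SPARC ligands and 1.24 for other follistatin-domain genes, and the labels name genes of at least 2-fold change.

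Leaving out 1 array moved the partner calls too. Without TGF-β1 replicate 3 there were 12 in place of 5, without control replicate 1 or control replicate 2 there were 2 (Col1a1 and Fstl3), without TGF-β1 replicate 1 there were 3, and without TGF-β1 replicate 2 only Fstl3 was left. Calls among all genes went from 198 to 709, 74, 83, 67 and 56 in these fits. The 5 and the 12 include Col1a1 and Col1a2, and the 12 also Col4a2, which entered the fit only through the TGF-β1 arrays and had to come out higher. Pdgfb had an adjusted p of 0.105 to 0.120 and Fst of 0.0586 to 0.0819 in the 4 fits without control replicate 1 or 2 or TGF-β1 replicate 1 or 2. As a description only, Col1a2 missed the threshold without control replicate 1 (0.0597), control replicate 2 (0.0754) or TGF-β1 replicate 2 (0.0727), and Col1a1 without TGF-β1 replicate 2 (0.0515). Fstl3 stayed called with each array left out, at adjusted p of 0.00184 to 0.0272.

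Markers of other cells were read beside these values. Of 14 markers of airway and lung epithelium, 11 were tested and the keratin genes Krt8 and Krt18 were above 16 on every array. Foxj1, the master factor of ciliated cells, was called higher at 1.47 (limma adjusted p = 0.00238), and Muc5ac, Muc5b and Sftpc, of mucous and type 2 alveolar cells, were dim throughout. Scgb1a1, the secretoglobin of club cells, gave 10.83, 10.18 and 7.77 in the controls and 7.00, 7.57 and 7.42 with TGF-β1. Its groups did not overlap, and its difference of -2.27 missed the threshold (adjusted p = 0.158). It was called lower, at -3.18 without control replicate 3 (adjusted p = 0.0205), at -3.23 in the arrays of slide row 1 alone (adjusted p = 0.0102) and at -3.02 with array weights (adjusted p = 0.00969). It was at -1.65 without control replicate 1 (adjusted p = 0.393) and at -1.97 without control replicate 2 (adjusted p = 0.348). Scgb3a2, the other secretoglobin gene of the list, went the other way. Its mean was 9.05 in the controls and 10.10 with TGF-β1, without overlap (a difference of 1.05, adjusted p = 0.117 in limma). The summed linear signal of the epithelial markers was 223334 to 237237 in the controls and 228686 to 321007 with TGF-β1. Of 12 fibroblast and smooth muscle markers, 6 were dim on all arrays (Pdgfrb, Col3a1, Lum, Tcf21, Des and Postn). Col1a1 and Col1a2, which are also in the list of SPARC ligands, entered the fit only through the TGF-β1 arrays, as given above. Pdgfra, Dcn, Thy1 and Acta2 were well above background on every array, at 0.02 to 2.47 with adjusted p of 0.176 to 0.960. The summed linear signal of the 6 tested markers was 10847 to 17577 in the controls and 12503 to 18386 with TGF-β1. Its brightest probe was that of Acta2, smooth muscle actin, whose log2 fold change was 0.02, and without Acta2 the sums were 567 to 638 and 698 to 2700. Sums over different probes follow the brightest ones, so none of the marker sums here measures an amount of a cell type. Thy1, a fibroblast surface marker, stood far above the controls in TGF-β1 replicates 1 and 2: it gave 4.14, 4.67 and 4.23 in the controls and 8.19, 7.65 and 4.60 with TGF-β1 (a difference of 2.47, adjusted p = 0.176, and of 3.58, adjusted p = 0.00212, without TGF-β1 replicate 3). In the controls the Thy1 spot was only 1.54 to 1.89 times as bright as the local background. With normexp background correction its difference was 1.38 (limma adjusted p = 0.135). Whether Thy1-bearing cells had a part in the Fstl1 and Sparc values was not tested. Endothelial markers (2 of 7 tested) and leukocyte markers (3 of 6 tested) gave 0 calls in limma, against 1.38% of all genes. At an unadjusted p under 0.05 there were 0 and 1, and 0 in either list by the methods' t-test. The share of all genes at that threshold was not counted. Summed linear signals of the endothelial and leukocyte markers were 72.7 to 88.4 and 6315 to 8922 in the controls, and 84.4 to 98.9 and 8459 to 10050 with TGF-β1. The endothelial genes Cdh5, Kdr, Tek, Emcn and Cldn5 and the leukocyte genes Ptprc and Lyz2 were dim on every array. The leukocyte genes Csf1r, Cd68 and Cd3e and the endothelial gene Pecam1 were well above background on every array. Cd68 was higher with TGF-β1 by 0.90 (adjusted p = 0.147 in limma), without overlap, as were 12.9% of all genes.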

How the data were processed

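RNA of 3 control and 3 TGF-β1-treated 2D-MAO cultures, described as biological replicates, was measured on SurePrint G3 Mouse arrays of Agilent with 1 dye. Intensity on a linear scale is what the authors deposited for each spot, background-subtracted and detrended by Agilent Feature Extraction 11.0.1.1 per the labels, without normalisation between arrays, which the study then made by quantiles. From these signals, control spots and spots marked as outliers were left out, spots of a probe were averaged, and log2 values were quantile-normalised. Of 35883 probes with a RefSeq accession, 32991 matched a gene symbol through the RefSeq table of GRCm38.p6. Probes that stood well above background on 3 or more of the 6 arrays were kept, and the probe with the highest mean signal stood for a gene.

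Groups were compared with limma 3.58.1 in R 4.3.3 on all 14345 genes or all 32460 probes, with no covariate. A call needed a 2-fold change in either direction (1 on the log2 scale) together with p under 0.05 after Benjamini-Hochberg adjustment. The number of arrays, 3 a group, limits the precision. The members, partner lists and marker lists were chosen with earlier results of these data known. Named were all members, Vim, each called gene and the 4 largest changes of a partner list. The 5 genes most like Fstl1 and markers by example were also named. Markers below background, Scgb1a1, Scgb3a2, Acta2, Pdgfra, Dcn, Csf1r, Cd68, Cd3e and Pecam1 were named beyond that rule, after their values were seen. The lists came from general knowledge.

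Alternatives covered the normalisation (75th percentile), the background (normexp with an offset of 50, on the median spot intensity, since the deposited files hold no mean), the filter (none, or all 6 arrays), the probes (averaged over a gene), the threshold, the test (the methods' t-test, a trended robust prior, weighted arrays), terms for replicate number or slide row, and leaving out each array. The fits that left out an array kept the normalisation, filter and probes of all 6. Analysis steps were tested on simulated data.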

Additional observations from a re-analysis of the deposited data

How the results depend on the processing

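The increases of Fstl1 and Sparc kept their direction under all 20 alternatives, with log2 fold changes of 2.42 to 3.40 and 2.10 to 2.98, and 13 of the 20 kept each call. Alternatives that only loosened the threshold could not lose a call. The filters, the methods' t-test, the trended robust prior and the added terms left both log2 fold changes as they were, so direction could not turn there. Both calls were lost without control replicate 1 or 2 or TGF-β1 replicate 1 or 2. Scaling to the 75th percentile gave 2.61 and 2.14, and normexp gave 2.65 and 2.35. Without a filter on dim probes, the calls fell to 0 members, 0 member probes, 1 partner gene and 60 of all genes, from 2, 4, 5 and 198, with 22910 genes then tested. After Benjamini-Hochberg adjustment the methods' t-test left 0 members, 0 member probes, 0 partner genes and 5 of all genes. Without adjustment it gave 10 partner genes and 388 of all genes, and limma without adjustment 12 and 493. Array weights gave 12 partner genes and 807 of all genes, and the arrays of slide row 1 alone, chosen after seeing the data, 13 and 861. Leaving out 1 array in turn gave 0 to 2 members, 0 to 4 member probes, 1 to 12 partner genes and 56 to 709 of all genes. The partner counts include, where called, collagen genes that entered the fit only through the TGF-β1 arrays. In each alternative with 0 members called, both Fstl1 and Sparc still had a 2-fold change at an unadjusted p under 0.05, the highest being 0.00512 and 0.00737 by the methods' t-test. The share of calls that were higher was 86.4%, and was 71.9% without control replicate 3, 73.6% with array weights and 72.8% in slide row 1 alone, while the 75th percentile scaling gave 85.8%. Dip2a turned to -0.085 with the mean of its probes. Its change passed the threshold under no alternative, nor did those of Dip2b, Dip2c, Smoc1 and Smoc2. Smoc1 could not be given with detection on all 6 arrays. The causes of the other shifts were not tested.

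Replicate numbers were shared between the groups, but same-numbered arrays deviated together by r = -0.01, 0.33 and -0.05, and not every array correlated best with its own number, so the numbers were not taken to pair the cultures. With the replicate number as a block, 0 members, 0 member probes, 3 partner genes and 104 of all genes were called, with adjusted p of 0.0927 for Fstl1 and 0.108 for Sparc at the same log2 fold changes.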
